A study of Arabidopsis thaliana with 6 samples.

Results

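The multidrug and toxic compound extrusion (MATE) transporters of Arabidopsis thaliana were examined in RNA-seq libraries from the floral abscission zone, the cell layers at which petals, sepals and stamens detach. Members were chosen by the words "MATE efflux" in the gene description of the deposited count table, which 53 of its 33602 genes carried, ZF14 (AT1G58340) among them. ZF14 was singled out for its difference between the groups, so its own difference is given as a description without a test. The table has 3 libraries of residuum cells (REC), which remain on the receptacle, and 3 libraries of secession cells (SEC), which leave with the shed organs. Both groups came from soil-grown plants that carry the reporter proQRT2::nlsGFP-GUS, at flower stage 16, and had no other treatment in the labels. In the reporter, a nuclear green fluorescent protein is under the promoter of QRT2, a polygalacturonase gene, and protoplasts were sorted by this fluorescence. The cDNA was amplified for 18 cycles, and the labels do not describe the replicates as separate plants or separate sorts. The p-values below therefore cover only the variation among these 6 libraries, which may be technical.

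MATE proteins are membrane carriers that move small organic molecules out of the cytosol, either out of the cell or into the vacuole, and take the energy from a proton or sodium gradient. In plants their known cargoes include citrate, flavonoids, alkaloids, phenolic amides, abscisic acid and precursors of salicylic acid. Plants hold far more genes of the family than animals do, many of them in tandem copies.

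Library depth was 13222538 to 17192864 counts on genes. Levels below are CPM, which are counts put on one library size by TMM factors (trimmed mean of M-values). Comparisons between genes use the same value per kilobase of exon (RPKM), apart from the ranks of ZF14, which use CPM. QRT2 itself was at 23.4, 22.6 and 79.6 CPM in REC replicates 1, 2 and 3 and at 1552, 1748 and 1848 CPM in SEC, so the gene whose promoter marks the sorted cells was low in the REC libraries. REC replicate 3 stood somewhat nearer to SEC than the other REC libraries did, with correlations of log2 CPM of 0.579 to 0.611 against 0.515 to 0.564. Values without it are given where they change a result. Markers of mesophyll, the photosynthetic tissue, summed to 660 to 1386 CPM over 3 genes in REC and to 0.976 to 3.49 CPM in SEC. RBCS1A made up most of the REC sums, at 897, 1123 and 645 CPM in replicates 1, 2 and 3. LHCB1.1 and CAB3 were highest in REC replicate 2, at 179 and 84.1 CPM. Of 5 guard cell markers, HT1 was at 0 counts in every library and FAMA, MYB60 and KAT1 averaged under 1 CPM in both groups. GORK averaged 18.9 CPM in REC and 27.0 CPM in SEC. It made up most of the sum of the list, which was 13.2 to 31.7 CPM in REC and 14.6 to 40.1 CPM in SEC. The sums of the phloem, pollen and tapetum, and xylem lists were at most 12.6, 0.752 and 1.24 CPM in any library. The part of mesophyll cells in the members' differences was not tested. In such bulk libraries, fewer cells that express a gene and less RNA of it per cell cannot be told apart.

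Of the 53 members, 13 had no count in any library and 12 had 1 to 54 counts over all libraries and were not tested. The remaining 28 entered the fit over all genes, and they are counted here without ZF14. Of the other 27, 10 rose in SEC, 6 fell and 11 did not pass the test (edgeR quasi-likelihood test, Benjamini-Hochberg adjusted p under 0.05 over 17246 genes). The share called was 59.3%, against 60.8% of all genes tested, so it is near the background and is not a result about the family. By direction, 37.0% of these members were higher, where 28.9% of all genes were, and 22.2% were lower, where 31.9% of all genes were. The REC and SEC values were fully separated in 19 of the 27, against 71.5% of all genes tested. The median log2 fold change, SEC minus REC, was 0.58 over these members and −0.07 over all genes tested, and they ran from −7.32 to 8.65, both from genes with 0 counts in 1 group. Of the 28, 15 reached 10 counts in every library of both groups, 9 did so in SEC alone, 3 in REC alone and 1 in neither, so some entered the test only through the group in which they were high. Called members that reached it in SEC alone were AT1G33090, MATE (AT1G51340), AT3G21690, LAL5 (AT3G23550) and AT4G22790, besides ZF14. AT1G33100 and AT5G49130 reached it in REC alone. Of the members not called, DTX50 (AT5G52050), DTXL5 (AT2G04100) and AT1G64820 reached it in SEC alone. ALF5 (AT3G23560) reached it in REC alone, and AT1G73700 in neither. The adjusted p-values of all these genes below, in any setting, are given as a description.

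**Figure D1:**
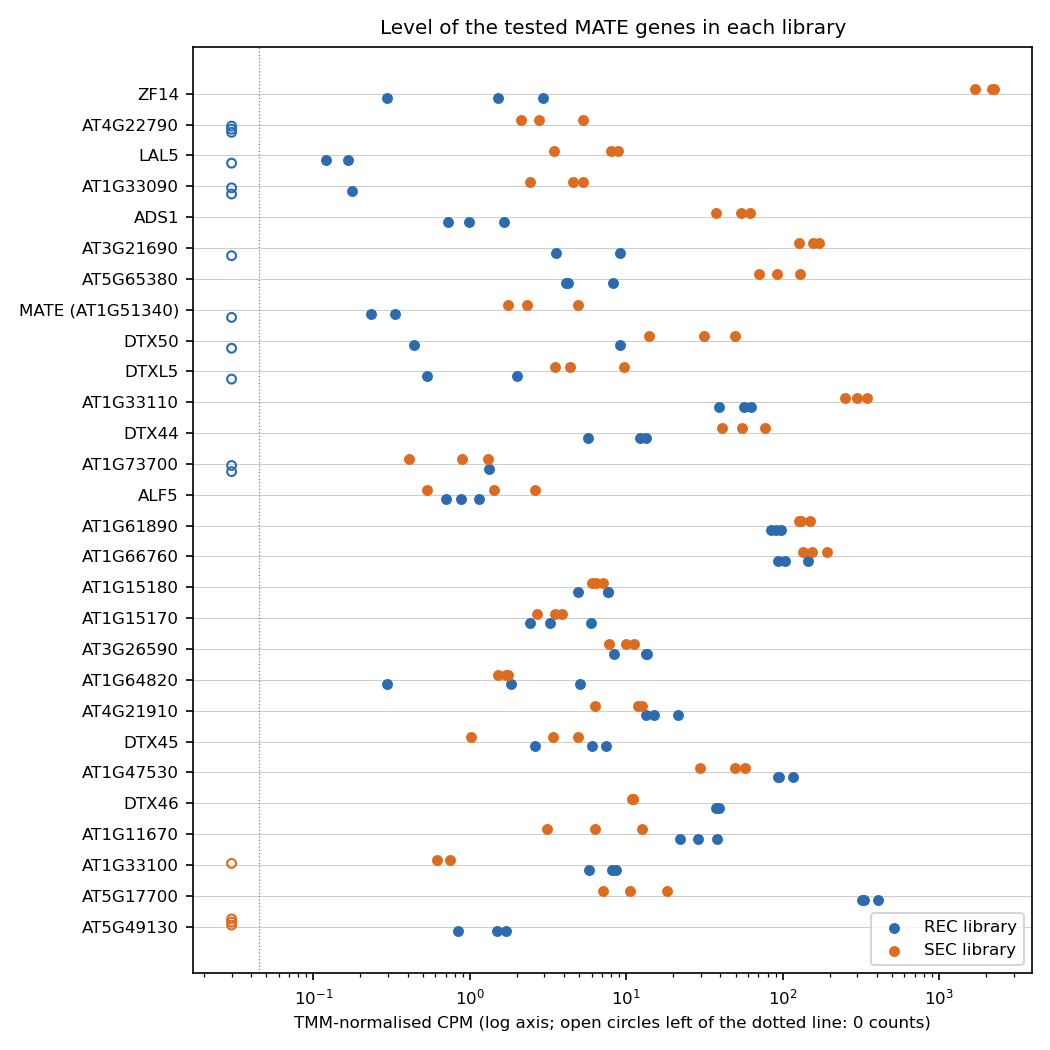
Level of each of the 28 tested MATE genes in each library, in TMM-normalised CPM on a log axis, ordered by log2 fold change, with REC libraries in blue and SEC libraries in orange. Open circles left of the dotted line stand for 0 counts, and ZF14 at the top reaches 1699 to 2237 CPM in SEC while no REC library passes 2.93.

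ZF14, also called BCD1 and ZRZ, is known from plants that overproduce it, which are bushy, dwarfed and pale. The gene lies at chr1:21653008-21655439 on the plus strand of TAIR10. It had 25, 53 and 5 counts in REC replicates 1, 2 and 3 and 19145, 31735 and 24083 counts in the SEC replicates. On the scaled level this was 1.51, 2.93 and 0.294 CPM in REC and 1699, 2169 and 2237 CPM in SEC. The groups were far apart in every library, with means of 1.58 ± 1.32 and 2035 ± 293 CPM (SD, n = 3 each). The log2 fold change was 10.32 ± 0.77 (SE), and 9.84 to 11.13 with each library left out in turn, the highest value without REC replicate 2. By CPM, not divided by exon length, ZF14 ranked 82, 51 and 50 among all genes in the SEC libraries. In the REC libraries it ranked 15201, 14228 and 17670.

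The member with the mirror pattern was AT5G17700, at chr5:5830581-5833901 on the minus strand, for which the sources used here give no role. It stood at 322, 332 and 406 CPM in REC and at 7.1, 18.2 and 10.5 CPM in SEC. All REC libraries lay above all SEC libraries, and the level fell by 4.88 ± 0.39 (SE) on the log2 scale (edgeR adjusted p = 3.33e-05). Among tested members it was the most abundant in REC per length, with a mean of 134 RPKM, as ZF14 was in SEC with 971 RPKM.

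The promoters of both genes are shown because these members make up the largest share of the family in SEC and in REC. Each run is the RefSeq sequence of TAIR10.1 from 250 bases before to 30 bases after the RefSeq gene start, read 5′ to 3′ along the gene. Capitals mark the core of the W-box (TTGAC, or GTCAA when on the other strand), which WRKY factors bind, and the G-box (CACGTG), which bZIP and bHLH factors bind.
ZF14, chr1:21652738-21653017, plus strand: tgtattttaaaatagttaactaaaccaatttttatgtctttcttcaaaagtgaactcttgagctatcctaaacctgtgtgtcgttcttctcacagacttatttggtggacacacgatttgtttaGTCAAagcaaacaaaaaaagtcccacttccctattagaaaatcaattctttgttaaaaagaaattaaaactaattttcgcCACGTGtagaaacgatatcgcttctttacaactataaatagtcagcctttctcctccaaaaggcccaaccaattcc
AT5G17700, chr5:5833971-5834250, minus strand: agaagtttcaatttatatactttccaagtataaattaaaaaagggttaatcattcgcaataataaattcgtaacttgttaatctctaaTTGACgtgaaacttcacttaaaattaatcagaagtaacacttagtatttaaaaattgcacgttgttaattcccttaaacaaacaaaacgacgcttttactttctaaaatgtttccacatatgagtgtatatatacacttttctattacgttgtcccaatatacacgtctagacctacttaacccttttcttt
The ZF14 window held 1 W-box core and 1 G-box, and the AT5G17700 window held 1 W-box core. On either strand, the W-box core was found in 48.3% of 27443 promoters of this length and in 26 of the 53 members. The G-box was found in 7.2% of all promoters and in 6 members, and the auxin response element TGTCTC in 12.8% and in 9 members, but not in the windows of ZF14 and AT5G17700. No match shown overlapped another, and a match is a description of these letters only.

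Together the members took 0.104% ± 0.0122 of gene counts in REC and 0.261% ± 0.0355 in SEC (SD, n = 3 each). Their summed level was 867 ± 119 CPM in REC and 3159 ± 388 CPM in SEC. Without ZF14 the sums were 866 ± 120 and 1124 ± 97.4 CPM. Per length, ZF14 made up 0.22%, 0.407% and 0.0334% of the family in the REC libraries and 63.0%, 65.0% and 66.3% in the SEC libraries. AT5G17700 made up 37.2%, 36.7% and 36.6% in REC and 0.209%, 0.434% and 0.247% in SEC. Members at or above 1 CPM numbered 19 to 21 per REC library and 25 to 28 per SEC library.

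**Figure D2:**
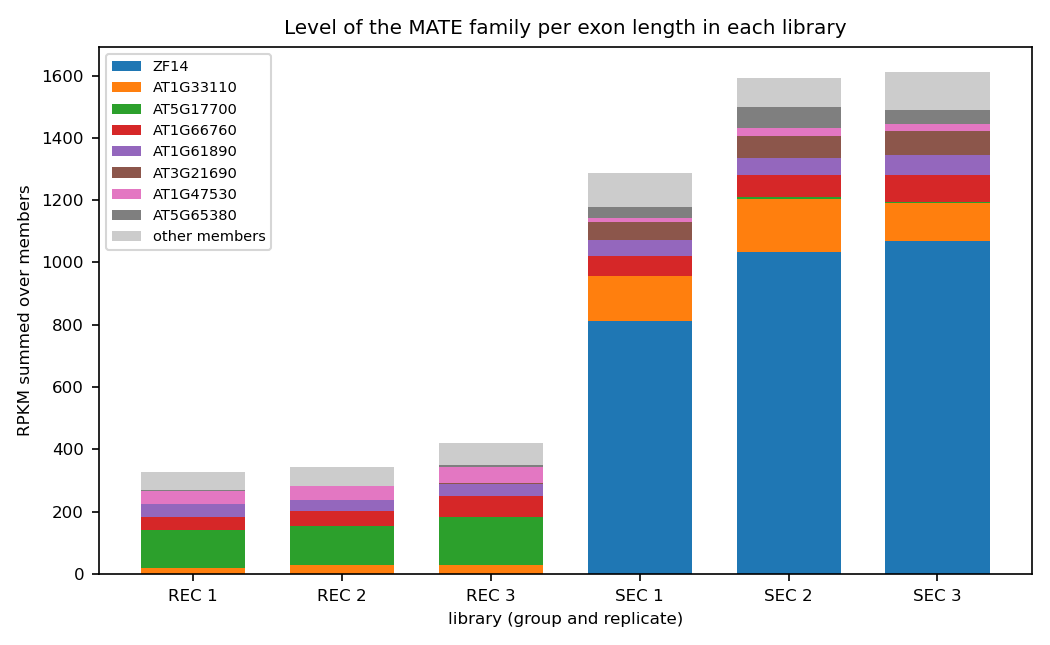
RPKM summed over the 53 MATE genes in each library, with the 8 most abundant members in colour and the others in light grey. AT5G17700 (green) is the largest segment in the REC bars and ZF14 (blue) in the SEC bars, where it takes 63.0% to 66.3%.

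By protein sequence, ZF14 belongs with AT2G38510, AT4G23030, ADS1 (AT4G29140), AT5G19700 and DTX50 (AT5G52050), a group joined by average linkage at a mean identity of 45%. ADS1, also called ADP1, alters lateral organ outgrowth and disease resistance when its activity is raised. It was at 0.724, 0.994 and 1.65 CPM in REC and at 37.7, 54.4 and 61.9 CPM in SEC, and rose by 5.51 ± 0.42 on the log2 scale (edgeR adjusted p = 3.06e-05). DTX50, an exporter of abscisic acid, was at 0, 0.442 and 9.11 CPM in REC and at 31.5, 13.9 and 49.2 CPM in SEC. Its groups did not overlap, but the log2 fold change of 3.31 ± 1.36 did not pass the edgeR test (adjusted p = 0.0644). REC replicate 3 carried most of its REC level, and without that library the log2 fold change was 7.07 (edgeR adjusted p = 0.000826). REC replicates 1 and 2 held only 0 and 8 counts of DTX50. It reached 10 counts in every library in SEC alone, so these p-values are given as a description.
The protein nearest to ZF14 was that of AT4G23030, at 58.8% identity, and those of DTX50 and ADS1 were at 49.9% and 49.1%. AT4G23030 had 36 counts in REC replicate 1, 6 in SEC replicate 2 and 0 elsewhere. AT2G38510 had 3 counts in 1 SEC library, and AT5G19700 had none. Besides ZF14, this group thus held 1 member that rose and 1 that did not pass, and its other 3 members had few counts or none.

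AT3G21690, AT1G33110 and AT5G65380 also rose, and their SEC means were above 90 CPM. AT3G21690 was at 0, 3.53 and 9.17 CPM in REC and at 127, 157 and 172 CPM in SEC. Its log2 fold change was 5.16 ± 1.09 (edgeR adjusted p = 0.00388), 6.40 without REC replicate 3 and 7.53 under limma voom. AT5G65380 was at 4.22, 4.14 and 8.17 CPM in REC and at 70.1, 129 and 91.6 CPM in SEC, and rose by 4.14 ± 0.39 on the log2 scale (edgeR adjusted p = 7.45e-05). The groups were clearly apart for both genes, and the sources used here give no role for either.

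DTX44 was at 12.2, 5.69 and 13.4 CPM in REC and at 76.6, 40.9 and 55.3 CPM in SEC, and rose by 2.46 ± 0.40 on the log2 scale (edgeR adjusted p = 0.00107). It overlaps AT2G38340 on the opposite strand, which averaged 10.9 CPM in REC and 403 CPM in SEC. The strand setting of the counter is not given in the sources used here, so reads of DTX44 and of this neighbour cannot be told apart with certainty. AT1G61890 was at 97.6, 83.8 and 91.1 CPM in REC and at 126, 131 and 150 CPM in SEC. It rose by only 0.58 ± 0.18 (edgeR adjusted p = 0.0246), and the value was 0.03 (adjusted p = 0.884) when libraries were scaled by size alone. The call was also lost without REC replicate 2, SEC replicate 2 or SEC replicate 3 (adjusted p = 0.0829, 0.0843 and 0.0796).
AT4G22790 had 0 counts in all REC libraries and was at 2.13, 5.26 and 2.79 CPM in SEC. Against a floor of 3 counts over the REC group it was at least 58.5-fold higher (edgeR adjusted p = 0.00204). It passed the filter through SEC alone, so the p-value is given as a description. The bound rests on low counts: it was 38.0 to 69.3 with 1 library left out, the lowest without REC replicate 2.

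Of the citrate exporters among the members, MATE and FRD3, only MATE had counts. The product of AT1G51340, called MATE, releases citrate from roots and gives tolerance to aluminium, and FRD3 loads citrate into the xylem for the movement of iron. FRD3 had 0 counts in every library. MATE was at 0, 0.331 and 0.235 CPM in REC and at 4.88, 2.32 and 1.77 CPM in SEC. It rose by 3.92 ± 1.18 on the log2 scale (edgeR adjusted p = 0.0198), or by 4.56 without REC replicate 2. The call was lost without SEC replicate 1 or 2 (adjusted p = 0.0893 and 0.0592).

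ALF5 protects roots from toxins, and its neighbour LAL5 exports hydroxycinnamic acid amides, which act in defence. The pair lies in tandem on chromosome 3, and the proteins are 85.3% identical. LAL5 was at 0.121, 0.166 and 0 CPM in REC and at 3.46, 8.00 and 8.83 CPM in SEC, and rose by 6.02 ± 1.01 on the log2 scale (edgeR adjusted p = 0.00124), or by 6.62 without REC replicate 2. ALF5 was at 1.15, 0.883 and 0.706 CPM in REC and at 0.533, 1.44 and 2.6 CPM in SEC, and the groups overlapped (log2 fold change 0.73 ± 0.86, edgeR adjusted p = 0.481). The difference between the fold changes of the pair was not tested. LAL5 overlaps AT3G23540 on the opposite strand, which went from a mean of 15.7 CPM in REC to 81.0 CPM in SEC, and the share of such reads in LAL5 was not tested. DTX1, an exporter of alkaloids and other toxic compounds, had 4, 6 and 2 counts in REC and none in SEC, and was not tested. It overlaps AT2G04039 on the opposite strand, which went from a mean of 7.84 CPM in REC to 0.0296 CPM in SEC.

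Besides AT5G17700, 5 members fell. DTX46, a relative of the salicylate-pathway exporter EDS5, was at 37.7, 38.9 and 38.3 CPM in REC and at 10.8, 11 and 11 CPM in SEC. The replicates nearly coincided, and the level fell by 1.81 ± 0.24 on the log2 scale (edgeR adjusted p = 0.000383). AT1G47530 was at 93.6, 95 and 116 CPM in REC and at 29.5, 57.7 and 49.7 CPM in SEC, and fell by 1.15 ± 0.28 (edgeR adjusted p = 0.00743). AT1G11670 was at 22.1, 28.5 and 37.8 CPM in REC and at 3.11, 6.29 and 12.5 CPM in SEC, and fell by 2.01 ± 0.51 (edgeR adjusted p = 0.0091), or by 2.64 without SEC replicate 3. Its protein is 84.2% identical to that of AT1G61890, which stood higher in SEC, and their coding sequences share no run of 50 bases. Every REC library exceeded every SEC library for these genes.
AT5G49130 was at 0.845, 1.49 and 1.71 CPM in REC and had no count in SEC. Against a floor of 3 counts over the SEC group, its level was at least 16.5-fold lower there (edgeR adjusted p = 0.00614). It passed the filter through REC alone, so the p-value is given as a description. The bound was 9.89 to 19.5 with 1 library left out, the lowest without SEC replicate 2. AT5G49130 and DTX46 overlap the opposite-strand genes AT5G49138 and AT2G21350, which were themselves called lower, with log2 fold changes of −7.47 and −4.58.

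The 4 tandem genes AT1G33080, AT1G33090, AT1G33100 and AT1G33110 on chromosome 1 showed 3 different outcomes although their proteins are similar. The first had no count in any library, the second and the last rose, and the third fell. AT1G33090, at chr1:11993298-11996712, was at 0, 0 and 0.176 CPM in REC, which is 3 counts in all, and at 5.33, 4.58 and 2.42 CPM in SEC. The ratio of SEC to REC was 71.9, with an exact 95% counting interval of 24.1 to 353 (edgeR adjusted p = 0.00429). The 3 REC counts all lay in REC replicate 3, and without that library the gene was at least 47.5-fold higher in SEC.
AT1G33100, at chr1:11997683-12001308, was at 8.15, 5.80 and 8.58 CPM in REC and at 0, 0.615 and 0.743 CPM in SEC, and fell by 4.02 ± 0.98 on the log2 scale (edgeR adjusted p = 0.00758). AT1G33110, at chr1:12004927-12008833, was at 39.1, 56.9 and 62.4 CPM in REC and at 296, 345 and 249 CPM in SEC, and rose by 2.49 ± 0.25 (edgeR adjusted p = 0.000103). The groups did not overlap for any of the 3 genes with counts. Protein identity was 87.6% between AT1G33090 and AT1G33100, 88.8% between AT1G33100 and AT1G33110 and 85.8% between AT1G33090 and AT1G33110. Of the 50-base runs in the coding sequence, 2.4%, 2.9% and 0.6% in AT1G33090, AT1G33100 and AT1G33110 also occur in another member. Only exact runs within coding sequence were compared, and the share of reads that fit more than 1 of these genes was not tested.

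**Figure D3:**
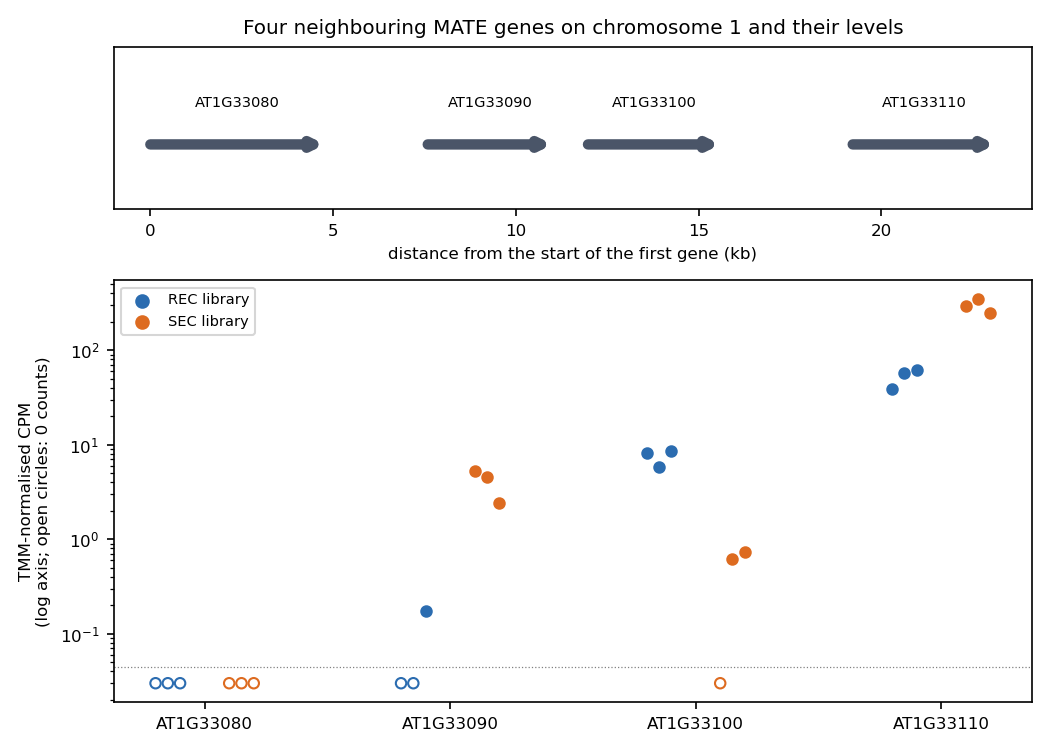
Position of the 4 tandem MATE genes on chromosome 1, as distance from the start of the first gene, above their TMM-normalised CPM in each library on a log axis (REC blue, SEC orange, open circles 0 counts). SEC libraries lie above REC libraries for AT1G33090 and AT1G33110 and below them for AT1G33100, and AT1G33080 has no count.

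The promoters of the 3 tandem genes with counts are shown because these neighbours differ in direction. They are again RefSeq TAIR10.1 sequence of the plus strand from 250 bases before to 30 after the RefSeq gene start, and capitals mark runs of at least 12 bases that another of the 3 also holds.
AT1G33090, chr1:11993048-11993327: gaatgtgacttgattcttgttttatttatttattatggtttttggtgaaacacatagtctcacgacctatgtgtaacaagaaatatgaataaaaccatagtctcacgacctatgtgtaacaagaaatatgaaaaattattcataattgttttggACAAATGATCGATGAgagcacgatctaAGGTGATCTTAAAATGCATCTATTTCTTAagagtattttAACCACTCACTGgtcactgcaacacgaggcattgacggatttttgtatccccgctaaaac
AT1G33100, chr1:11997250-11997529: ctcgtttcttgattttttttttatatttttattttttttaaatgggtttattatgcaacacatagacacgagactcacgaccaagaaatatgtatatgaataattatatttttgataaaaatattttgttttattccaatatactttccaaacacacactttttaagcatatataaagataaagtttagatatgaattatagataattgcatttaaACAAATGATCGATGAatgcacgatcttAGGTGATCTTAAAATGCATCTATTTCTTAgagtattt
AT1G33110, chr1:12004604-12004883: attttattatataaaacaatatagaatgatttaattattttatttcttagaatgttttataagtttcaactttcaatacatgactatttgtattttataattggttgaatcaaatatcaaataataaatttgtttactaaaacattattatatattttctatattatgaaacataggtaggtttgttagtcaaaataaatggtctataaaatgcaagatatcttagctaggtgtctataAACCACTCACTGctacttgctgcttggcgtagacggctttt
The longest run shared by AT1G33090 and AT1G33100 has 29 bases and starts 69 bases before the RefSeq start of the one and 7 bases before that of the other. AT1G33090 and AT1G33110 share a run of 12 bases, and AT1G33100 and AT1G33110 one of 11. Aligned over the whole window with gaps allowed, 61.4%, 57.9% and 60.7% of bases were identical in these pairs. No unrelated promoters were aligned for comparison, so these shares are a description and do not show similarity above a background. AT1G33090 and AT1G33100, which share the longest run, moved in opposite directions.

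Calls in the larger sequence groups are given as counts of few genes, beside 28.9% higher and 31.9% lower over all genes, and differences between members were not tested. The group of the tandem genes, which also holds AT5G10420, AT5G44050 and AT5G65380, had 4 tested members, of which 3 rose and 1 fell. The group of AT1G11670, AT1G61890, AT3G21690, AT4G21903 and AT4G21910 had 2 that rose, 1 that fell and 1 that did not pass. The group of 14 members around DTX1 had 5 tested members, and none passed the edgeR test at an adjusted p of 0.05. In that group AT1G66760 was abundant in both cell types, at 93.9, 103 and 146 CPM in REC and 135, 154 and 192 CPM in SEC (log2 fold change 0.49 ± 0.24, edgeR adjusted p = 0.113), and its libraries overlapped. Without REC replicate 3 it passed, at 0.71 (adjusted p = 0.0218). DTXL5 in the same group did not overlap between groups, with 1.99, 0 and 0.529 CPM in REC and 9.67, 3.49 and 4.37 CPM in SEC (log2 fold change 2.79 ± 1.24, edgeR adjusted p = 0.0829). Its coding sequence shares 15.5% of its 50-base runs with AT2G04090, so its level is uncertain. Without REC replicate 1 its log2 fold change was 4.43 (edgeR adjusted p = 0.0267). DTXL5 reached 10 counts in every library in SEC alone, so these p-values are given as a description.
The other members that did not pass were DTX45, AT4G21910, AT1G64820, AT3G26590, AT1G15170, AT1G15180 and AT1G73700. Their log2 fold changes ran from −0.78 to 0.94, and the groups overlapped for all of them but AT4G21910. AT1G73700 was at 0, 1.33 and 0 CPM in REC and at 0.888, 0.41 and 1.3 CPM in SEC, so its call depends on REC replicate 2, which held every REC count (edgeR adjusted p = 0.63 with it and 0.0221 without it). It overlaps AT1G73690 on the opposite strand, which averaged 0.627 CPM in REC and 6.01 CPM in SEC.

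**Figure D4:**
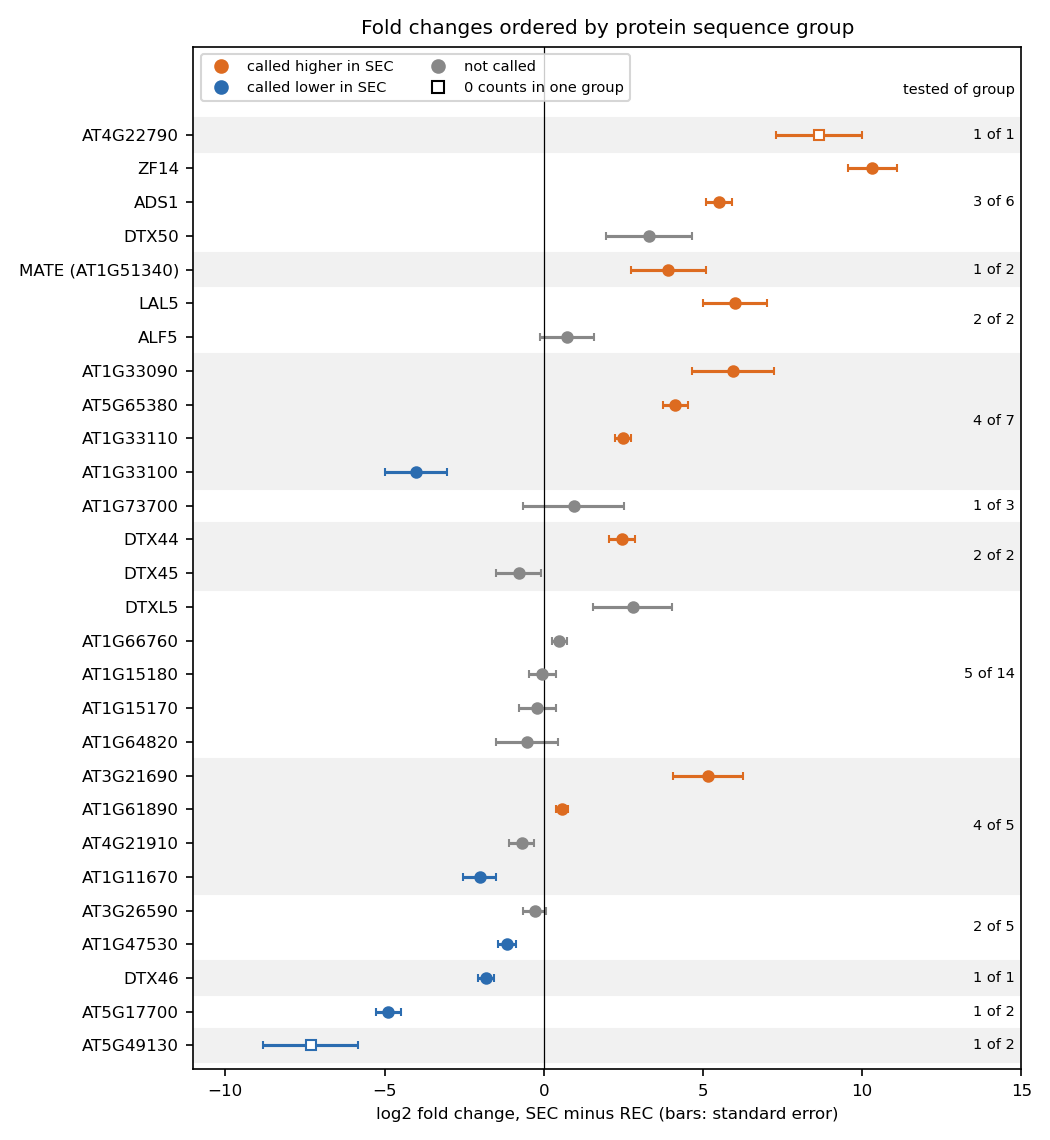
Log2 fold change, SEC minus REC, of the 28 tested MATE genes with standard errors, ordered by protein sequence group (shaded bands), with genes called higher in orange, called lower in blue and not called in grey. Open squares mark genes with 0 counts in 1 group, whose fitted value is no bound, and the numbers at the right give tested members of each group. ZF14 is coloured by the same rule, but it was chosen for its difference, so its call is not a result.

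Of the untested members with counts, some had most of them in 1 library. DTXL1 had 20 counts, all in SEC replicate 1, and AT5G44050 had 35 counts in REC replicate 2 and 3 in REC replicate 3. AT5G38030 had 7, 21 and 26 counts in the SEC libraries and none in REC. DTXL3 had 14, 10 and 8 counts in REC and 0, 2 and 0 in SEC, and 23.7% of its 50-base runs occur in another member.

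Genes of processes that meet MATE transport were read in the same fit, from 7 lists of 76 genes, of which 54 were tested. In all, 14 rose, 16 fell and 24 did not pass the edgeR test, and their median log2 fold change was −0.24. The shares of 25.9% higher and 29.6% lower are near the 28.9% and 31.9% of all genes tested, so they are not a result about the lists, and the counts of single lists below rest on few genes and are to be read against the same shares. As with the members, some list genes entered the test only through the group in which they were high. All 5 tested genes of abscisic acid transport and synthesis rose, and ABCG25, also on this list, had 0 counts in every library. ABCG30 and ABCG31 had 0 counts in REC and entered the test through SEC alone, so they could not have been called lower. ABCG40, a plasma membrane importer of abscisic acid, went from 96.5 ± 16.3 CPM in REC to 5764 ± 1312 CPM in SEC (SD, n = 3 each, log2 fold change 5.90 ± 0.30 SE, edgeR adjusted p = 1.17e-05). DTX50, the MATE counterpart that exports the hormone, did not pass the edgeR test (adjusted p = 0.0644). ABCG30, another importer, had 0 counts in REC and 34.8 ± 18.4 CPM in SEC, at least 599-fold higher.
The plasma membrane proton pumps, which build the gradient that such carriers use at the cell surface, had 2 genes that rose, 1 that fell and 5 that did not pass. AHA2 went from 220 ± 52.5 to 1616 ± 192 CPM and AHA9 from 0.568 ± 0.832 to 166 ± 26.3 CPM, while AHA11 went from 25.3 ± 3.73 to 0.433 ± 0.515 CPM. Of 12 tested genes, AVP1 and subunits of the vacuolar-type proton pump (VHA), none rose, 6 fell and 6 did not pass. The range of log2 fold changes was −1.11 to 0.50. This list does not separate pumps of the vacuolar membrane from those of other membranes. VHA-B2 went from 403 ± 21.4 to 187 ± 5.08 CPM.

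The counts of the following lists also rest on few genes and stand beside 28.9% higher and 31.9% lower over all genes tested. Among 10 tested genes of iron and citrate, 4 rose, 2 fell and 4 did not pass. YSL3, which carries metal chelates, went from 7.86 ± 3.19 to 83.6 ± 11.7 CPM, and the ferritin FER2 from 11.4 ± 3.94 to 1.96 ± 0.859 CPM. Among 10 tested salicylate genes, none rose, 3 fell and 7 did not pass. DMR6, an enzyme that hydroxylates salicylate, went from 46.5 ± 4.37 to 11.6 ± 0.770 CPM. Among 6 tested genes of flavonoid synthesis and transport, 4 fell, 1 rose and 1 did not pass. F3H went from 42.8 ± 7.59 to 0.0929 ± 0.161 CPM, and the transporter ABCC2 from 36.5 ± 25.7 to 225 ± 63.5 CPM. Among 3 tested genes on the list of hydroxycinnamic acid amides, SPE1 and SPE2, the arginine decarboxylases, rose. Whether these genes serve the amides that LAL5 exports was not tested. SDT did not pass (log2 fold change 0.52, edgeR adjusted p = 0.242). ACT, SHT and SCT, also on this list, had 0 counts in every library. SPE1 went from 31.7 ± 7.19 to 158 ± 29.0 CPM and SPE2 from 606 ± 91.8 to 1207 ± 138 CPM.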

How the data were processed

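The table deposited by the authors holds unnormalized read counts per gene of 6 libraries. The submitters' processing notes name HTSeq 0.6.1 and TopHat2 2.0.9 with the build TAIR10, besides Trimmomatic 0.32.3, FastQC 0.11.2, Picard 1.119, bcl2fastq 1.8.4 and DESeq2. The annotation release and the strand setting were not given in the sources used here. From the table, 5 summary rows of the counter were kept out of library sizes. They held the reads outside any feature (42.8% to 45.9% of all records), those placed at several sites (6.86% to 11.8%) and ambiguous ones (0.410% to 0.537%).

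Tests were run in R 4.3.3 with edgeR 4.0.16 (filterByExpr, TMM, quasi-likelihood F test, Benjamini-Hochberg over 17246 genes), and with limma 3.58.1 and DESeq2 1.42.0 as alternatives. The method was tested on simulated data. The SE of a log2 fold change is its absolute value over the root of F. RPKM divides CPM by RefSeq exon length. Against 0 counts, a floor of 3 counts over the group (0.0580 CPM in REC, 0.0818 CPM in SEC) gives a bound. Bounds and intervals hold for counting error alone, because reads of amplified cDNA are not independent.

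Table coordinates are TAIR10. Its starts are counted from 0, since 14406 of them equal RefSeq starts when read so and 134 when read as counted from 1, and 1 was added to each start printed. RefSeq TAIR10.1, to which 32454 genes and all 53 members matched by locus, supplied strand, proteins, overlaps and promoters, and its gene starts can differ from the table's. In it 11 members overlap a gene on the opposite strand. Proteins of at least 300 residues were grouped by pairwise identity.

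The members and lists were chosen with earlier results of these data known. Members are given library by library where they are ZF14, have a known role, were called with a mean of at least 10 CPM, or were among the 6 called members with the largest fold change in a direction. Values of other members were chosen after they were seen. Of each list, at most 2 called genes per direction are named.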

Additional observations from a re-analysis of the deposited data

How the results depend on the processing

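Counts of members here include ZF14, with 11 higher and 6 lower in the fit reported, or 10 and 6 without it. ZF14 was chosen for its difference, so its call, higher in each setting, is not a result. With a filter of 10 CPM in 3 libraries, 15 members were tested and 6 rose, since the filter leaves out lower members. With genes that overlap an opposite-strand gene left out, 9 members rose and 4 fell, and 10 genes of the process lists fell in place of 16, since fewer genes are tested. Under the other alternatives run, the counts moved by less than 1.5 times, and no called member changed sign. Among members not called, the log2 fold change changed sign for AT1G66760 with library size alone (−0.06), and for AT1G64820 with the replicate block (0.14). It also changed sign with 1 library left out for AT1G64820 (range −1.04 to 0.65), AT1G15170 (−0.44 to 0.25) and AT1G15180 (−0.21 to 0.06). Leaving out each library in turn gave 9 to 14 members higher and 6 lower, 13 to 20 list genes higher and 13 to 14 lower, and 4091 to 5438 genes higher and 4981 to 5439 lower over the whole table. Same-numbered libraries did not deviate together (correlations of −0.024, −0.013 and −0.015), and the replicate block gave 10 members higher and 5 lower (MATE, AT1G61890 and AT5G49130 lost their calls at adjusted p = 0.0892, 0.0558 and 0.0701) and 4644 genes higher and 4871 lower. With library size as the sole scaling, the median over all tested genes was −0.61 in place of −0.07 on the log2 scale, and 33.7% in place of 47.5% of called genes were higher, with 10 members higher and 7 lower. Upper-quartile scaling gave −0.31 and 41.5%, and AT1G61890 was not called (log2 fold change 0.34, adjusted p = 0.148), nor under the filter of 10 CPM (0.36, adjusted p = 0.112). DTX50 passed the test with limma voom (log2 fold change 6.14, adjusted p = 0.0212), and with the block (4.82, adjusted p = 0.0225), and AT3G21690 lay at 5.90 with the block. AT4G21910 passed with library size alone (−1.23, adjusted p = 0.0246), AT1G66760 with voom (0.56, adjusted p = 0.0289), and DTXL5 with DESeq2 (2.77, adjusted p = 0.0392) and voom (4.48, adjusted p = 0.0266). DTX50 and DTXL5 reached 10 counts in every library in SEC alone, so their p-values are given as a description. Voom gave 6.70 for AT1G33090, and 7.07 for AT4G22790 and −5.04 for AT5G49130, both with 0 counts in 1 group, and DESeq2 gave −6.47 for the last.

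With 3 libraries a group, members under about 1 CPM rest on few counts, and a call at that level can hang on 1 library. REC replicate 3 carries most of the REC counts of DTX50 and all those of AT1G33090. Without a stated strand setting, reads of DTX1, DTX44, LAL5, DTX46, AT1G73700 and AT5G49130 cannot be told apart with certainty from those of a neighbour on the other strand.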

Other observations

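RefSeq gives the product name of the family to 55 genes, the 53 members and a further 2, EDS5 and TT12, whose descriptions in the deposited table lack the words. EDS5, which exports a precursor of salicylic acid from the chloroplast, was at 19.0, 27.0 and 10.2 CPM in REC and 3.11, 3.49 and 4.64 CPM in SEC, and fell by 2.32 ± 0.46 (SE) on the log2 scale (edgeR adjusted p = 0.00278). TT12, a flavonoid transporter of the seed coat, averaged 0.379 CPM in REC and 0.211 CPM in SEC and was not tested. DTX35, which acts on flavonoids in flowers, was at 184, 236 and 193 CPM in REC and 742, 567 and 464 CPM in SEC, and rose by 1.53 ± 0.24 (edgeR adjusted p = 0.000839). Adding these genes, a choice made after seeing the data, gave 12 members higher and 7 lower, ZF14 included.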
